A study of Mus musculus with 4 samples.

Results

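The genes of 10 factors that regulate transcription in neurons of the arcuate nucleus were followed across cell classes: Otp, Bsx, Six6, Cited1, Isl1, Nkx2-1, Tbx3, Gsx1, Satb1 and Zfpm2. They are 10 of 35998 gene identifiers in the deposited tables, were read by their symbols, and all 10 were found on every plate. The members were chosen by their names, with the levels of several in AgRP neurons against other cells already known from these plates, so their levels by cell class are given as a description without a test. The tests below concern fasting, a contrast other than that between classes.

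The arcuate nucleus lies at the floor of the hypothalamus, beside the third ventricle, and holds neurons that raise feeding (AgRP neurons, which make Agrp, Npy and GABA) and neurons that lower it (POMC neurons). Homeodomain and other DNA-binding factors first divide the embryonic hypothalamus into fields and later, in combinations, set which neuropeptide a neuron makes. Several of them stay on in the adult, and tanycytes, the glia-like cells that line the ventricle floor, keep some of the same early factors.

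The cells came from the hypothalamus of C57BL/6 mice that carried Lepr-cre and Rosa-LSL-tdTomato, and were sorted as Lepr cells into 384-well plates, 1 plate after 24 h of fasting and 3 plates from fed mice. All 4 plates share this genotype. Cre under the leptin receptor promoter marks a cell for good, so a sorted cell need not make Lepr at the time. The number, sex and age of the animals behind a plate, and whether plates came from separate animals, are unknown here, and p-values measure only the spread between plates. The same 384 well names recur on the 4 plates, so cells were tracked by plate and well.

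RNA was read by CEL-seq2, which counts each transcript near its 3′ end once by a unique molecular identifier (UMI). Of 1536 wells, 1279 passed (270 fasted; 356, 322 and 331 on fed plates 1, 2 and 3), with median depths of 9715 transcripts on the fasted plate and 7753 to 13518 on the fed plates. Clusters named from marker genes gave 4 classes. AgRP-like neurons were 197 cells (27 fasted; 83, 59 and 28 fed) and other neurons 188 (21 fasted; 41, 51 and 75 fed). Tanycyte-like cells were 235 (42 fasted; 49, 73 and 71 fed), and remaining cells, mostly glial, vascular and pituitary, 659. The AgRP-like cells of the fasted plate all fell in cluster 18, led by Vgf and Agrp. Cluster 4 held 81 of 83 from fed plate 1, and cluster 3 held 59 of 59 from fed plate 2 and 25 of 28 from fed plate 3. With 1 fasted plate, feeding state and plate cannot be told apart. The fasted plate also differed in the sex of its cells: 84.4% of its kept cells had Xist and no Y-linked UMI, against 6.74, 51.6 and 42.0% on fed plates 1, 2 and 3.

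The classes were named from lists of marker genes that hold no member. The sums below use the same lists, so they describe the classes and are no check of the names. The 9 AgRP neuron markers summed to 9158 to 14871 CPM (counts-per-million, the UMIs of a gene scaled to the total of the class on that plate) in AgRP-like neurons and to 896 to 1764 CPM in other neurons over the 4 plates. The 12 tanycyte markers summed to 7495 to 10469 CPM in tanycyte-like cells and to 155 to 501 CPM in remaining cells. Npy, a transcript of AgRP neurons, stood at 697 to 1469 CPM in tanycyte-like cells, 821 to 1375 CPM in remaining cells and 506 to 1107 CPM in other neurons. Whether this was RNA of one cell type read in wells of another, or RNA made in these cells, was not tested. For the members, the level in oligodendrocyte-like cells (51 cells, 35 of them from the fasted plate) serves as a background. It was 8.0 CPM for Otp, 4.0 for Bsx and Six6, 30.2 for Cited1, 14.1 for Isl1 and Satb1, 6.0 for Nkx2-1, 20.1 for Tbx3, 2.0 for Gsx1 and 42.2 for Zfpm2. The 257 wells that did not pass had higher levels of every member but Bsx, which had 0 UMIs. Over the 4 plates they had 140 CPM of Otp, 54.3 of Six6, 272 of Cited1, 109 of Isl1 and 23.3 of Nkx2-1. Tbx3 was at 163 CPM there, Gsx1 at 15.5, Satb1 at 101 and Zfpm2 at 147. Each level rests on 35.0 UMIs or fewer. Cited1 in tanycyte-like cells, at 96.1 to 161 CPM, was below that of these wells. Which background suits the kept cells was not tested.

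A few genes of the set serve as examples of the contrast and are not its largest cases. Cited1 and Bsx were high in AgRP-like neurons, and Gsx1 was low there and high in part of the other neurons. Each has a start that agrees between RefSeq and GENCODE vM21, and RefSeq lists other starts for Cited1 too. The 250 bases before each shared start are printed, from RefSeq on GRCm38.p6 (mm10), 5′ to 3′ on the gene's strand. Capitals mark matches, on either strand, to any of 3 motifs: TAATTA, the core bound by many homeodomains, CAAGTG, the core bound by Nkx2-1, and TATAAA, the TATA box. Cited1 lies on the minus strand at chrX:102252182-102252431, Bsx on the plus strand at chr9:40873877-40874126, and Gsx1 on the plus strand at chr5:147188446-147188695.
Cited1: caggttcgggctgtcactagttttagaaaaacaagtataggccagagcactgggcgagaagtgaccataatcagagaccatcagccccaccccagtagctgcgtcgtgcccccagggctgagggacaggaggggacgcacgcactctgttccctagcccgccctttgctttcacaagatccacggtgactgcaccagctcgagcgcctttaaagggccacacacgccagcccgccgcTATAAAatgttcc
Bsx: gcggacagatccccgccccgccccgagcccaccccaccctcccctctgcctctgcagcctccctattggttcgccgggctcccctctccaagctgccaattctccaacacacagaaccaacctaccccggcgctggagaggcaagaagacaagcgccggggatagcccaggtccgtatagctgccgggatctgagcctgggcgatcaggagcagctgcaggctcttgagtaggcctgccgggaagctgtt
Gsx1: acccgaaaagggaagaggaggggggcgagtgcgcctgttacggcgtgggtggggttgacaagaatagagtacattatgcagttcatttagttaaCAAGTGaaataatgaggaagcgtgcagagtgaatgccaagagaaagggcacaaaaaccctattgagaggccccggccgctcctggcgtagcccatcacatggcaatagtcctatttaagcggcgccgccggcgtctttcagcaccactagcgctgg

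Of the 3 motifs, Cited1 held TATAAA just before its start, Gsx1 held CAAGTG, and Bsx held none. These are matches of sequence, and whether the TATAAA of Cited1 works as a TATA box was not tested. Over 32851 RefSeq windows of this length TATAAA was found in 12.4%, CAAGTG in 11.6% and TAATTA in 4.84%. The table held 14 windows for 8 of the 10 members, of which 2 had TATAAA (both of Cited1), 2 had CAAGTG (Gsx1 and Satb1) and 0 had TAATTA. Tbx3 and Zfpm2 were not in that table.

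Of the factors, 6 were higher in AgRP-like neurons than in other neurons on each plate, with levels on the 4 plates that did not overlap: Otp, Cited1, Bsx, Zfpm2, Six6 and Satb1. Nkx2-1 and Gsx1 were lower in AgRP-like neurons on each plate, again without overlap, and Isl1 and Tbx3 overlapped between the classes. Of 11185 genes with at least 100 UMIs in neurons, 4.9% were higher and 7.81% were lower in AgRP-like neurons without overlap. Since the members were chosen with this contrast in view, nothing is read from 6 and 2 of 10 against those shares.

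**Figure D1:**
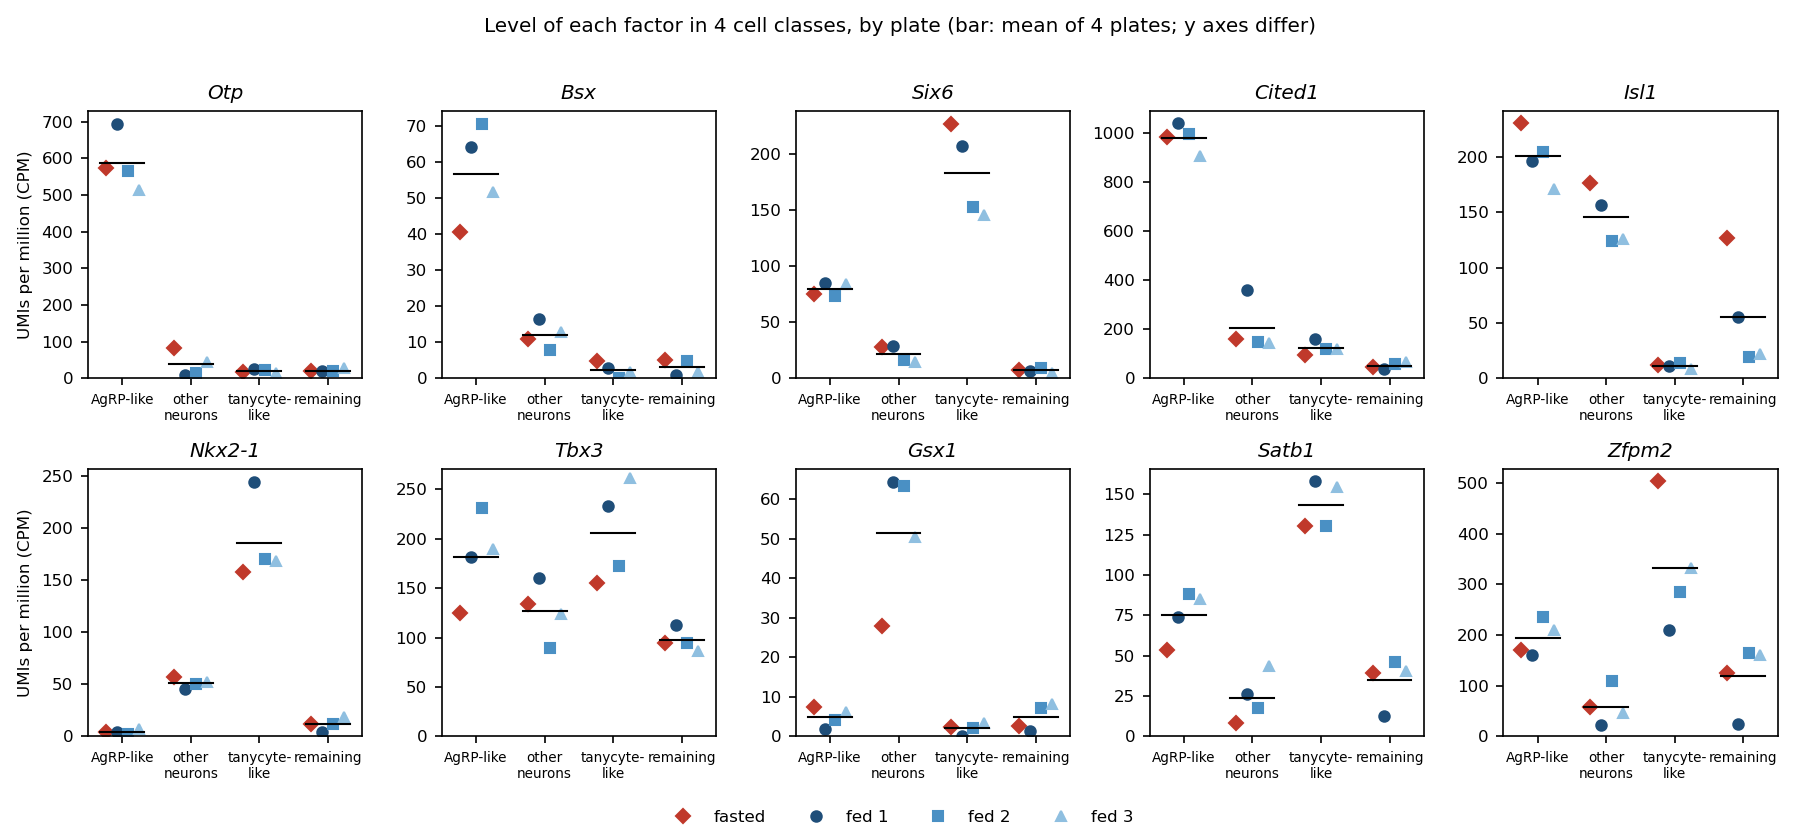
Level of each of the 10 factors in CPM (y axis, scale differs by panel) in AgRP-like neurons, other neurons, tanycyte-like cells and remaining cells; each point is 1 plate (red diamonds fasted, blue symbols the 3 fed plates) and the bar is the mean of the 4 plates. By the mean of the plates Otp, Bsx, Cited1 and Isl1 are highest in AgRP-like neurons, Six6, Nkx2-1, Tbx3, Satb1 and Zfpm2 in tanycyte-like cells, and Gsx1 in other neurons.

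Otp, a homeodomain factor needed for several neuroendocrine cell groups of the hypothalamus, had 573 CPM in fasted AgRP-like neurons and 694, 566 and 513 CPM on fed plates 1, 2 and 3. Other neurons had 82.1 CPM on the fasted plate and 9.83, 16.02 and 43.8 CPM on the fed plates. The lowest plate of AgRP-like neurons was thus above the highest plate of other neurons, and the mean log2 ratio was 4.41 ± 1.51 (SD over 4 plates). Tanycyte-like cells (13.9 to 25.9 CPM) and remaining cells (18.9 to 28.6 CPM) overlapped in range. The gene lies on chr13:94875602-94885130, plus strand.

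A few cells carried the Otp of other neurons. On the fasted plate 1 cell held 72.6 of 82.6 Otp UMIs, and without it the level there was 10.6 CPM. That cell had 474 Sst and 166 Npy UMIs, 5.0 Agrp UMIs and 14.0 of Slc32a1, which loads GABA into vesicles. On fed plate 3 all 7 cells of the neuron subcluster N9, led by Nxph4 and Sim1, had Otp, at 369 CPM together. Subcluster N9 had no cell on the other plates.

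Cited1, a co-regulator that binds no DNA itself but joins DNA-binding factors to CBP and p300, was the most abundant of the 10. It had 984 CPM in fasted AgRP-like neurons and 1038, 995 and 906 CPM on the fed plates, against 160 CPM in fasted and 358, 150 and 145 CPM in fed other neurons. The mean log2 ratio was 2.38 ± 0.57 (SD over 4 plates), and fed plate 1, with the highest level in other neurons, had the smallest ratio at 1.54. Cited1 lies on the X chromosome, at chrX:102247381-102252181. In AgRP-like neurons of fed plate 2 it had 981 CPM in 40 cells with Xist only and 1046 CPM in 11 cells with Y-linked UMIs only, and on fed plate 3 it had 879 CPM in 6 and 961 CPM in 13 such cells.

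Bsx, a homeodomain factor of the arcuate nucleus that mice need for normal Agrp and Npy expression, was far less abundant. It had 40.7 CPM in fasted and 64.2, 70.7 and 51.8 CPM in fed AgRP-like neurons, against 10.9 CPM in fasted and 16.4, 8.01 and 12.97 CPM in fed other neurons (log2 ratio 2.25 ± 0.59, SD over 4 plates). In tanycyte-like cells 2.0, 1.0, 0.0 and 1.0 UMIs were read on the fasted plate and fed plates 1, 2 and 3, and the 0 on fed plate 2 allows up to 6.01 CPM. Among other neurons it was highest in subcluster N9 (79.9 CPM, 7 cells), which is also where Otp was highest. Both genes were therefore high in AgRP-like neurons and in N9.

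Six6, a homeodomain factor of the developing eye, pituitary and hypothalamus, had 2 places of high level. AgRP-like neurons had 74.99 CPM on the fasted plate and 85.0, 73.7 and 83.9 CPM on the fed plates, and other neurons 27.9 CPM fasted and 28.4, 16.8 and 14.9 CPM fed. Tanycyte-like cells were above both, with 227 CPM on the fasted plate and 207, 152 and 146 CPM on the fed plates, without overlap with AgRP-like neurons. Remaining cells stayed at 4.61 to 9.46 CPM.

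Satb1, a chromatin organiser with CUT domains and a homeodomain, had the same order of these 3 classes. It was at 131 CPM in fasted and 158, 130 and 154 CPM in fed tanycyte-like cells. AgRP-like neurons had 53.4 CPM on the fasted plate and 73.9, 87.9 and 85.0 CPM on the fed plates, against 7.95 CPM in fasted and 26.2, 17.5 and 43.7 CPM in fed other neurons. Beyond these classes, oligodendrocyte precursor-like cells had 125 CPM and ependymal-like cells 84.5 CPM.

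Zfpm2, a zinc-finger partner of GATA factors also known as FOG2, had 170 CPM in fasted and 161, 235 and 211 CPM in fed AgRP-like neurons. Other neurons had 58.8 CPM on the fasted plate and 21.8, 108 and 46.1 CPM on the fed plates, so the groups did not overlap (log2 ratio 1.93 ± 0.77, SD over 4 plates). The 108 CPM of fed plate 2 came largely from the 4 cells of subcluster N12, led by Crym and Slc17a7, which had 1146 CPM and occurred on that plate only. Zfpm2 was higher still in glial classes, at 416 CPM in oligodendrocyte precursor-like and 378 CPM in astrocyte-like cells.

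Nkx2-1 and Gsx1, both homeodomain factors of the early hypothalamus, showed the opposite order. Nkx2-1, which the ventral hypothalamus needs to form, had 4.06 CPM in fasted and 4.16, 2.38 and 7.25 CPM in fed AgRP-like neurons, against 56.7 CPM in fasted and 45.9, 50.3 and 52.4 CPM in fed other neurons. Gsx1, which mice need to make growth hormone-releasing hormone (Ghrh) neurons, had 7.55 CPM in fasted and 1.85, 4.16 and 6.21 CPM in fed AgRP-like neurons. Other neurons had 27.9 CPM of Gsx1 on the fasted plate and 64.5, 63.4 and 50.5 CPM on the fed plates. The AgRP-like levels of both genes were close to those of oligodendrocyte-like cells given above.

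Isl1, a LIM homeodomain factor that arcuate neurons need to make Pomc, was shared by both kinds of neuron. It had 230 CPM in fasted and 197, 205 and 171 CPM in fed AgRP-like neurons, and 176 CPM in fasted and 156, 124 and 126 CPM in fed other neurons. Each plate had the higher level in AgRP-like neurons, but the ranges overlapped and the log2 ratio was 0.47 ± 0.18 (SD over 4 plates). Tanycyte-like cells had 8.66 to 14.0 CPM.

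Tbx3, a T-box factor that keeps Pomc neurons in their identity, was found in all 4 classes. AgRP-like neurons had 124 CPM on the fasted plate and 182, 231 and 190 CPM on the fed plates, and other neurons had 133 CPM fasted and 161, 88.9 and 124 CPM fed. The order of the classes changed between plates, with other neurons the higher on the fasted plate. Tanycyte-like cells had 155 to 262 CPM and remaining cells 86.8 to 113 CPM, with pars tuberalis-like cells at 207 CPM and endothelial-like cells at 113 CPM.

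**Figure D2:**
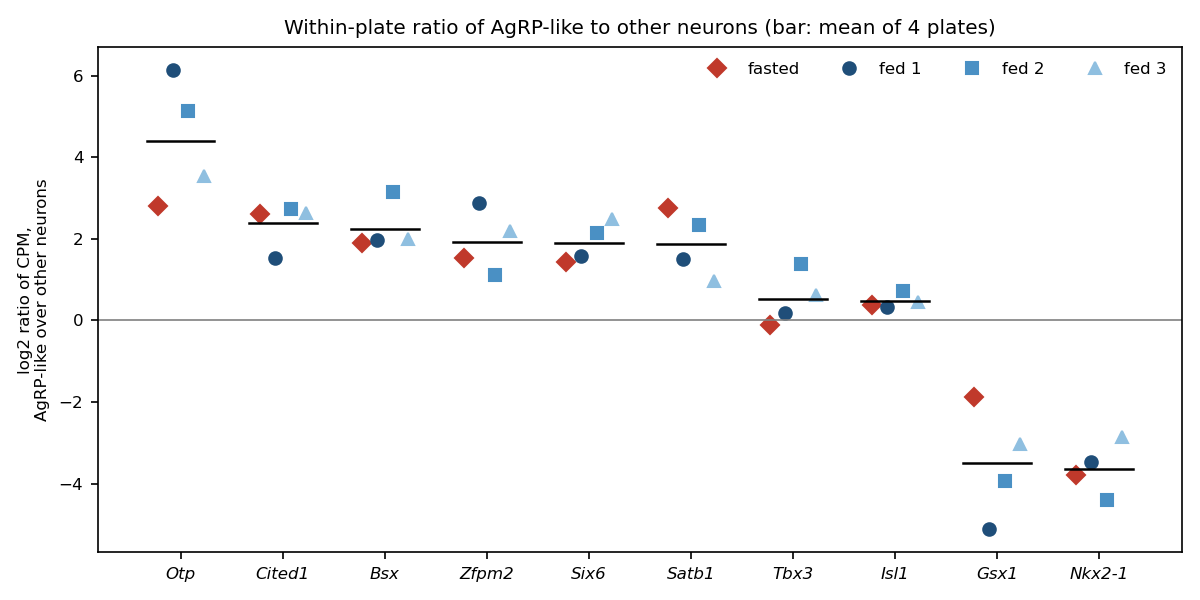
Log2 ratio of CPM in AgRP-like neurons over other neurons within each plate (y axis) for the 10 factors, ordered by the mean of the 4 plates (bar); red diamonds are the fasted plate and blue symbols the fed plates. Without overlap of the underlying levels, 6 factors lie above 0, from Otp (mean 4.41) to Satb1 (1.88), and Gsx1 (-3.49) and Nkx2-1 (-3.63) lie below 0 on all plates.

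Within AgRP-like neurons Cited1 and Otp were near universal and the rest were seen less often. Before any thinning 97.5% of the cells had a Cited1 UMI, 96.95% an Otp UMI, 93.9% each an Isl1 and a Tbx3 UMI, 85.3% Zfpm2, 77.2% Six6, 75.1% Satb1, 69.0% Bsx, 12.2% Nkx2-1 and 10.7% Gsx1. Their median depth was 30081 transcripts a cell, against 26676 in other neurons, 6920 in tanycyte-like cells and 6895 in remaining cells, so shares were compared after thinning every cell to 3000 transcripts. This left out 3 AgRP-like, 2 other neurons, 25 tanycyte-like and 114 remaining cells that were shallower.

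After thinning, Otp was seen in 81.4% of AgRP-like neurons (95% exact interval 75.2 to 86.7), in 8.60% of other neurons (5.00 to 13.6), in 5.24% of tanycyte-like cells (2.64 to 9.18) and in 6.42% of remaining cells (4.51 to 8.82). Cited1 was seen in 92.8% of AgRP-like neurons (88.2 to 96.0), 31.7% of other neurons, 24.8% of tanycyte-like cells and 11.7% of remaining cells. Intervals and floors cover counting error only, and the cells of a plate are not independent samples.

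A cell of the AgRP-like class had a mean of 3.58 of the 10 factors at this depth (SD 1.34 over 194 cells), an other neuron 1.51, a tanycyte-like cell 2.31 and a remaining cell 0.835. By plate the mean was 3.12 in fasted and 3.58, 3.69 and 3.75 in fed AgRP-like neurons, against 1.62 in fasted and 1.68, 1.65 and 1.28 in fed other neurons. At least 3 of the 10 were seen together in 80.9% of AgRP-like neurons, 18.3% of other neurons, 42.9% of tanycyte-like cells and 2.94% of remaining cells. Otp and Cited1 were both seen in 150 of 194 AgRP-like neurons, where the product of their shares gives 147. Bsx and Six6 were both seen in 10 cells, where the product of their shares gives 5.1. These products are given for scale, and no pair was tested.

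**Figure D3:**
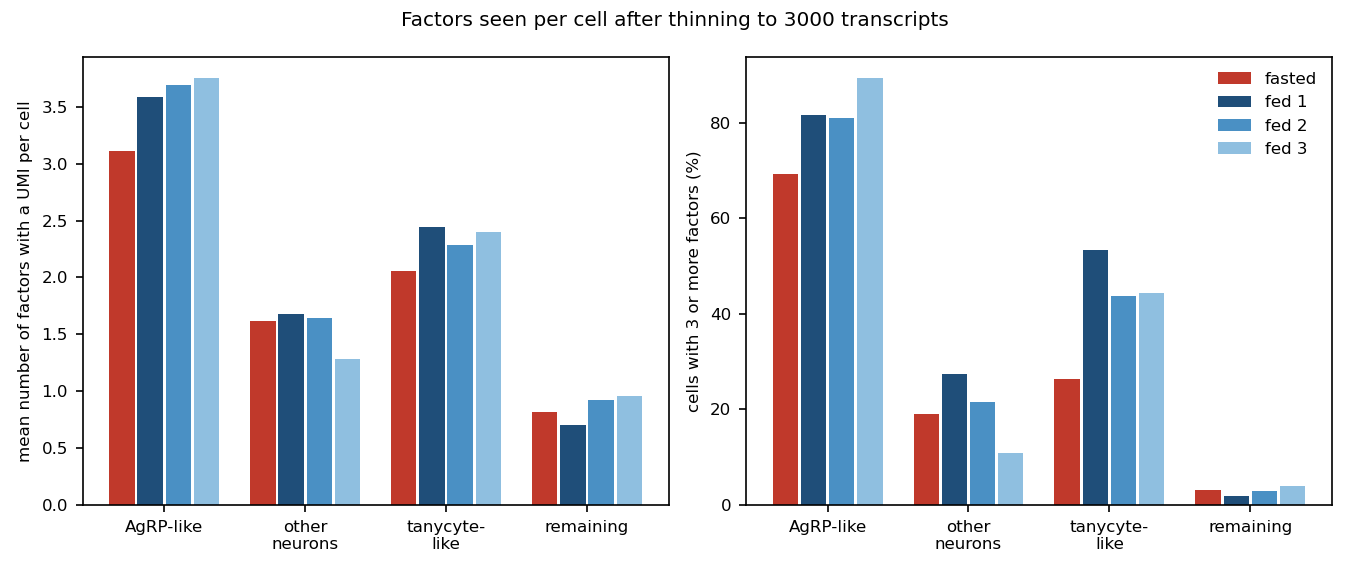
Left, mean number of the 10 factors with a UMI per cell, and right, percent of cells with 3 or more of them (y axes), by class and plate after thinning each cell to 3000 transcripts; red bars are the fasted plate and blue bars the fed plates. AgRP-like neurons have a mean of 3.12 to 3.75 on the 4 plates and other neurons 1.28 to 1.68.

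The other neurons are a mixture, and the factors split it. They were clustered again, without using the members, into 13 subclusters of 4 to 32 cells, which are called by number and leading genes. Gsx1 was high in N0 (124 CPM, 32 cells, led by Cox6a2 and Bnc2), N4 (136 CPM, 11 cells), N5 (210 CPM, 10 cells, led by Ghrh and Gal) and N6 (133 CPM, 10 cells, led by Omp and Ebf1). In these 4 subclusters Isl1 was at 126 to 270 CPM, Tbx3 at 3.33 to 15.95 CPM and Nkx2-1 at 0 to 13.3 CPM.

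A second set had Tbx3 and Nkx2-1 and little Gsx1. In N1, led by Pomc (31 cells), Tbx3 was at 266 CPM, Nkx2-1 at 94.0, Cited1 at 407, Isl1 at 177 and Gsx1 at 3.51 CPM. In N11, led by Tac2 and Kiss1 (7 cells), Tbx3 was at 275 CPM and Nkx2-1 at 116 CPM, but Isl1 at 6.09 CPM. N3, led by Pirt (25 cells), had Tbx3 at 284 CPM and Nkx2-1 at 86.0 CPM.

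N7, led by Crabp1 (8 cells), was the subcluster in which Gsx1 (84.9 CPM), Tbx3 (356 CPM), Nkx2-1 (97.02 CPM) and Isl1 (279 CPM) were all high. N8, N9, N10, N11 and N12 had Isl1 at 0 to 17.96 CPM, close to the 14.1 CPM of oligodendrocyte-like cells. Of these, N8, N9 and N11 had more Slc17a6, the marker of glutamate neurons (452 to 609 CPM), than the 3 GABA markers together (32.3 to 85.3 CPM). N0, N4, N5, N6 and N7 were the reverse, with 1011 to 1818 CPM of GABA markers and 0 to 15.95 CPM of Slc17a6. AgRP-like neurons are GABA neurons too but combined Isl1 and Tbx3 with near-background Gsx1 and Nkx2-1, a combination that no subcluster showed. The subclusters are small, several lack cells on a plate, and their levels were not tested.

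**Figure D4:**
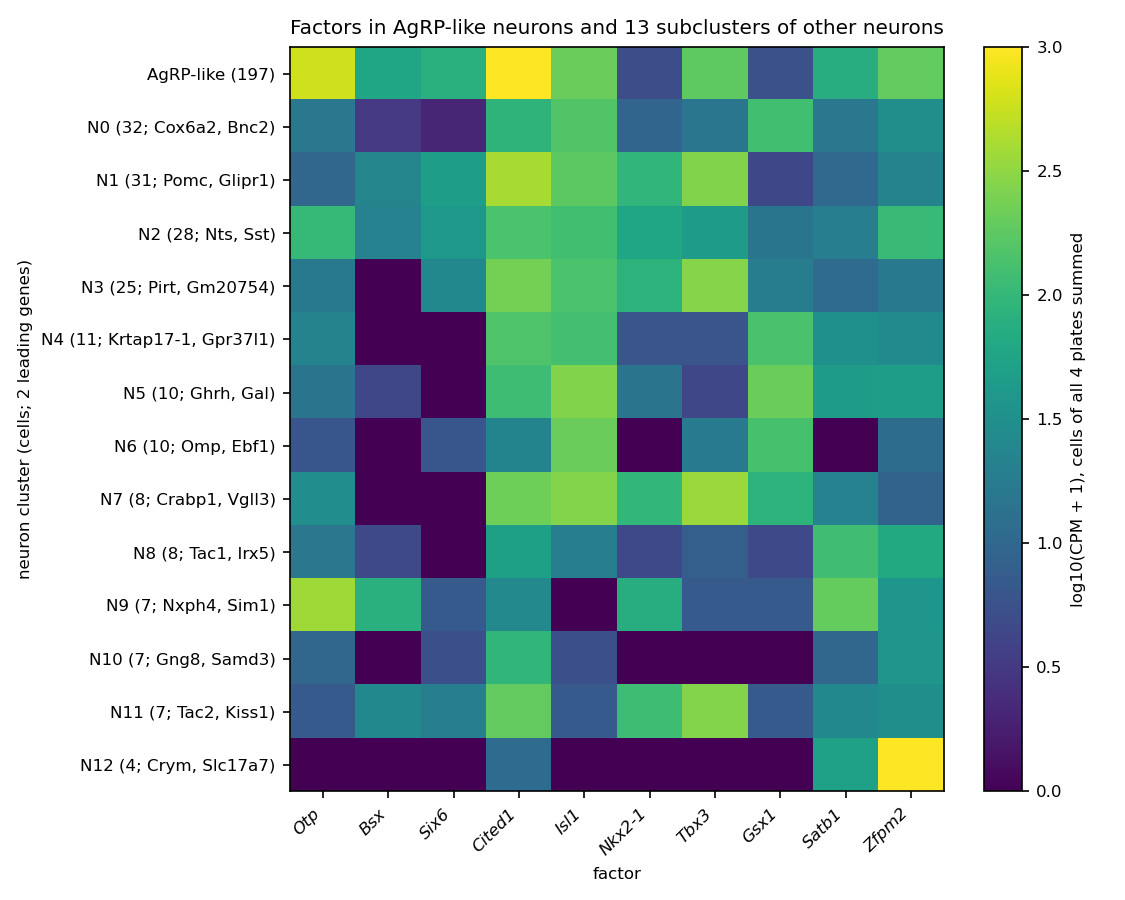
Level of the 10 factors (columns) as log10(CPM + 1), cells of the 4 plates summed, in AgRP-like neurons and in 13 subclusters of other neurons (rows, with cell number and 2 leading genes). Gsx1 is high in N0, N4, N5, N6 and N7 (84.9 to 210 CPM), Tbx3 in N1, N3, N7 and N11 (266 to 356 CPM), and Otp outside AgRP-like neurons in N9 (369 CPM).

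Tanycyte-like cells split as well. Cluster 10, led by Scn7a, Fndc3c1 and Col25a1 (50 cells), had 374 CPM of Tbx3, against 142 CPM in the other tanycyte-like clusters (185 cells). For Zfpm2 it was the reverse, with 193 CPM in cluster 10 and 389 CPM in the others. Tbx3 was higher in cluster 10 on all 4 plates, at 624 CPM in fasted and 387, 248 and 406 CPM in fed cells, against 115 CPM in fasted and 161, 144 and 158 CPM in fed cells of the others. Nkx2-1 had 158 CPM in fasted and 244, 170 and 168 CPM in fed tanycyte-like cells, which is the highest class for that gene.

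Among remaining cells Isl1 was highest in 1 type. Pars tuberalis-like cells, from the stalk of the pituitary, had 396 CPM in 20 fasted cells and 467 CPM in 21 cells of fed plate 1, and fed plates 2 and 3 had 0 and 1 such cells. Without them Isl1 was at 17.9 CPM in fasted and 10.02, 18.9 and 21.4 CPM in fed remaining cells.

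The genes most like each factor were sought among 13819 genes over 29 sums of a cell type on a plate (11 types, at least 10 cells each), leaving the 10 members out of the ranking. The points share plates and types, so the r values are descriptions. Nearest to Otp was Agrp (r = 0.82), and nearest to Bsx was Entpd3 (0.88), which encodes an enzyme that breaks down extracellular ATP. Cited1 was nearest to Pcsk1n (0.93), an inhibitor of the prohormone convertase Pcsk1, and Nkx2-1 to Il1rapl2 (0.87) and its relative Nkx2-4 (0.80). The nearest genes were Crb1 for Six6 (0.88), Ncoa7 for Isl1 (0.87), 1110008P14Rik for Tbx3 (0.81), Pdzrn4 for Gsx1 (0.81), Src for Satb1 (0.812) and Dtna for Zfpm2 (0.84). Between members, Satb1 and Zfpm2 had an r of 0.813, above that of Satb1 with Src, and no other member was closer to a factor than the genes named.

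Fasting was compared on counts summed per plate with edgeR's quasi-likelihood test, with Benjamini-Hochberg adjustment over every gene in a fit and a threshold of 0.05. In AgRP-like neurons none of the 10 factors passed, while 5.04% of 13142 genes did (3.2% higher and 1.84% lower), among them Agrp itself (log2 fold 0.90, SE 0.23, edgeR adjusted p = 0.0124). The median log2 fold was -0.07 over the 10 factors and -0.02 over all genes. In this test 3 factors had an unadjusted p under 0.05, each below its fed range, beside 2427 of the 13142 genes. Under DESeq2 no factor passed either. Otp (log2 fold -0.02, SE 0.23), Cited1 (0.03, SE 0.23) and Six6 (-0.08, SE 0.23) stayed within the range of the fed plates.

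Tbx3 was the nearest to the threshold in AgRP-like neurons, with 124 CPM on the fasted plate, below 182, 231 and 190 CPM on fed plates 1, 2 and 3. Its log2 fold was -0.67 (SE 0.23), and its edgeR adjusted p was 0.0781 (0.00542 before adjustment). Without fed plate 1 the edgeR adjusted p was 0.00502, and without fed plate 2 it was 0.379. In the 24 fasted AgRP-like neurons with Xist only, Tbx3 had 125 CPM. Fed neurons with Xist only had 255, 230 and 182 CPM on plates 1, 2 and 3 (7, 40 and 6 cells), and fed neurons with Y-linked UMIs only had 167, 213 and 169 CPM (66, 11 and 13 cells), all above the fasted value.

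Bsx (log2 fold -0.61, SE 0.28, edgeR adjusted p = 0.227) and Satb1 (-0.59, SE 0.25, edgeR adjusted p = 0.184) were also below their fed ranges on the fasted plate. Isl1, at 230 CPM, was above its fed range of 171 to 205 CPM (log2 fold 0.29, SE 0.21, edgeR adjusted p = 0.495). Pars tuberalis markers, all 6 of them detected, summed to 1085 CPM in fasted AgRP-like neurons, against 199 to 378 CPM on fed plates, where Cga was at 0 on plate 2 and Pitx1 on plate 3. Pars tuberalis-like cells have Isl1, and their part in its level here was not tested.

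**Figure D5:**
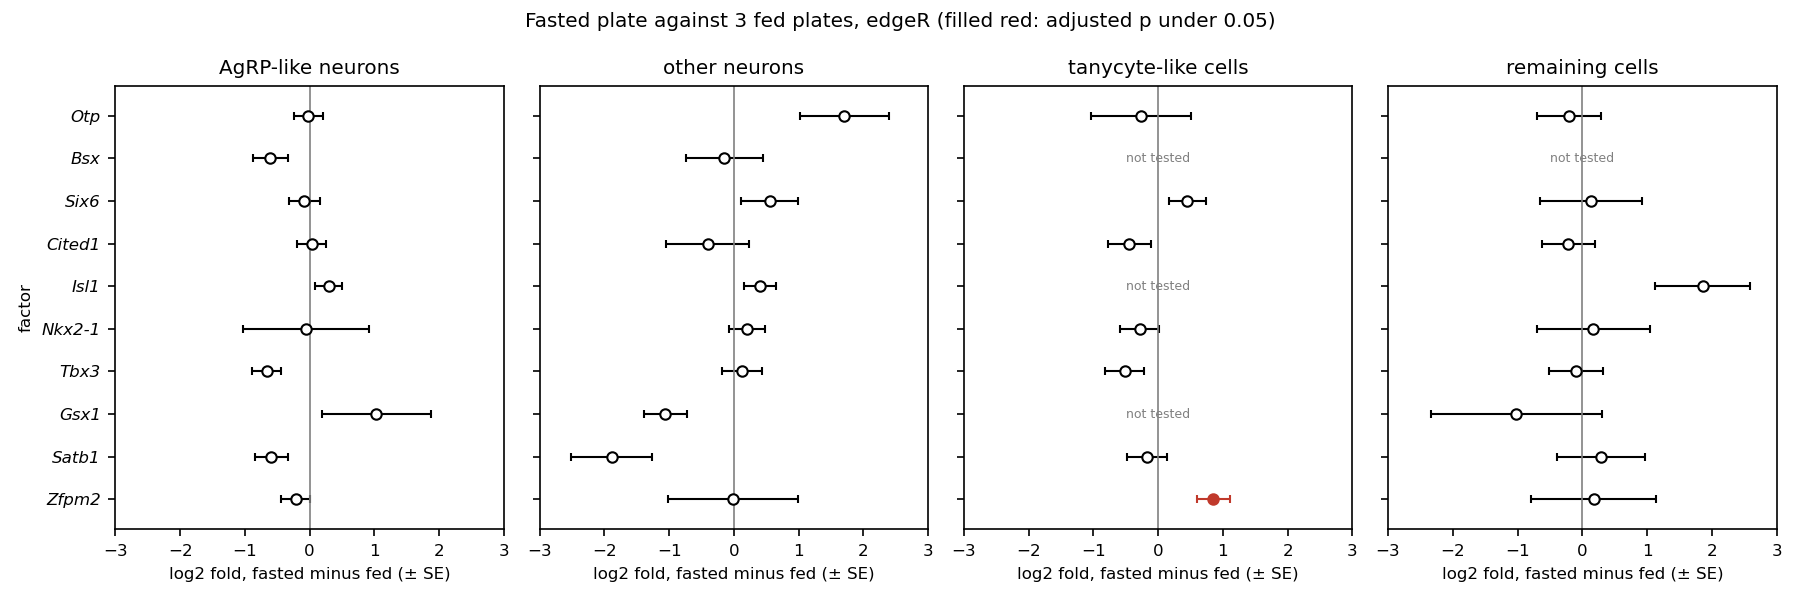
Log2 fold of the fasted plate over the 3 fed plates (x axis, points with SE derived from the edgeR F statistic) for the 10 factors (rows) in the 4 classes (panels). A filled red point passed the threshold of 0.05, and factors too low to be tested are marked. Zfpm2 in tanycyte-like cells is the one filled point, at 0.85.

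In other neurons none of the 10 factors passed in edgeR, where 0.144% of 12475 genes did (0.0962% higher and 0.0481% lower). An unadjusted p under 0.05 was found for 2 factors and for 1202 of the 12475 genes. DESeq2 called none of the 10 factors. Gsx1 had 27.9 CPM on the fasted plate, below 64.5, 63.4 and 50.5 CPM on the fed plates (log2 fold -1.06, SE 0.33, edgeR adjusted p = 0.321). Satb1 rested on 8.0 UMIs on the fasted plate and on 24.0, 24.0 and 91.1 UMIs on fed plates 1, 2 and 3 (log2 fold -1.89, SE 0.63, edgeR adjusted p = 0.356). Without fed plate 2 its edgeR adjusted p was 0.0233. Otp was higher on the fasted plate (log2 fold 1.71, SE 0.69, edgeR adjusted p = 0.525) through the 1 cell named above, and its edgeR adjusted p was 0.0155 without fed plate 2 and 0.000802 without fed plate 3.

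Such a sum over a mixed class cannot tell fewer cells of a kind from less RNA per cell. The 4 Gsx1-rich subclusters N0, N4, N5 and N6 held 5 of the 21 other neurons on the fasted plate (4, 0, 0 and 1 cells). Fed plate 1 had 16 of 41 there, fed plate 2 had 19 of 51 and fed plate 3 had 23 of 75. With N7, where Gsx1 was also high, the share was 33.3% on the fasted plate, against 41.5, 41.2 and 34.7% on fed plates 1, 2 and 3. Within N0, Gsx1 had 51.4 CPM in 4 fasted cells, 1 of them with a UMI. Fed cells of N0 had 195, 135 and 130 CPM (6, 7 and 15 cells). In the 1 fasted cell of N6 it had 151 CPM, within the fed range of 0 to 218 CPM. In 2 fasted cells of N7 it had 70.5 CPM, within the fed range of 49.1 to 145 CPM. The levels of these few cells were not tested.

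In tanycyte-like cells 7 of the 10 factors were abundant enough to be tested and 1 passed. Zfpm2 was higher in fasted cells, at 503 CPM, against 210, 285 and 331 CPM on fed plates 1, 2 and 3 (log2 fold 0.85, SE 0.26, edgeR adjusted p = 0.0362). Of 10418 genes tested 3.1% passed (1.86% higher and 1.24% lower), with a median log2 fold of -0.02 over all genes and of -0.26 over the 7 factors. The call was lost when any 1 fed plate was left out (edgeR adjusted p from 0.0623 to 0.141) and under DESeq2, whose adjusted p was 0.413.

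The tanycyte-like cells of the fasted plate also differed in kind. Cluster 10, which has less Zfpm2, held 3 of 42 of them, against 11 of 49, 15 of 73 and 21 of 71 on fed plates 1, 2 and 3. Without that cluster Zfpm2 had 530 CPM in fasted and 249, 340 and 384 CPM in fed cells, with a log2 fold of 0.69 and an edgeR adjusted p of 0.146. The 12 tanycyte markers, none at 0, summed to 7495 CPM in fasted cells and to 8495 to 10469 CPM in fed cells. The 9 astrocyte markers summed to 3382 CPM in fasted and to 2597 to 3232 CPM in fed cells, with Agt at 0 on fed plate 1, and their part in the result was not tested. In Xist-only cells of the fasted plate and fed plates 2 and 3 Zfpm2 had a log2 fold of 0.67 and an edgeR adjusted p of 0.957.

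The other tanycyte factors did not pass. Tbx3 had 155 CPM in fasted and 233, 172 and 262 CPM in fed cells (log2 fold -0.52, SE 0.30, edgeR adjusted p = 0.415), and Six6 had 227 CPM in fasted and 207, 152 and 146 CPM in fed cells (0.45, SE 0.28, edgeR adjusted p = 0.474). In Xist-only cells, where fed plate 1 had too few cells to enter, the log2 fold of Six6 was 2.37 (edgeR adjusted p = 0.0145), with 228 CPM in 35 fasted cells against 66.5 CPM in 24 cells of fed plate 2 and 0 UMIs in 11 cells of fed plate 3. Fed tanycyte-like cells with Y-linked UMIs only had 198, 192 and 173 CPM of Six6 on plates 1, 2 and 3. Bsx, Isl1 and Gsx1 were too low there to be tested.

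In remaining cells 9 factors were tested with edgeR and none passed; neither did any of the 15080 genes (0.0%), of which 505 had an unadjusted p under 0.05, and DESeq2 called 4 genes and no factor. Isl1 had 127 CPM in fasted and 55.6, 18.9 and 22.1 CPM in fed cells (log2 fold 1.86, SE 0.73, edgeR adjusted p = 0.999). The 6 pars tuberalis markers, none at 0, summed to 10952 CPM in fasted and to 4955, 84.0 and 452 CPM in fed remaining cells. Without fed plate 1 the log2 fold of Isl1 was 2.67 (edgeR adjusted p = 0.00153), and without pars tuberalis-like cells it was 0.17.

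Whether the fasted minus fed log2 fold differed between AgRP-like and other neurons was tested with the plates as blocks. A shift common to a plate then cancels, but a different mix of cells within a class does not. None of the 10 factors passed in edgeR, where 1.22% of 13865 genes did (0.779% higher and 0.44% lower), and DESeq2 called none of them. An unadjusted p under 0.05 was found for 1633 of the 13865 genes and for 1 factor. That factor was Gsx1, with a difference of log2 folds of 2.19 (SE 0.69, edgeR adjusted p = 0.147), but its AgRP-like level rested on 13 fasted and 4, 7 and 6 fed UMIs. For Tbx3 the difference was -0.79 (SE 0.41, edgeR adjusted p = 0.532) and for Otp -1.66 (SE 1.09, edgeR adjusted p = 0.705). All 3 depended on the fed plates used. Gsx1 had 2.27 without fed plate 2 (edgeR adjusted p = 0.0496) and 2.58 without fed plate 3 (edgeR adjusted p = 0.0304). Without fed plate 1 Tbx3 had -1.05 (edgeR adjusted p = 0.0161), and Otp had -1.40 without fed plate 2 (edgeR adjusted p = 2.23e-05) and -2.69 without fed plate 3 (edgeR adjusted p = 3.58e-12). The Otp of fasted other neurons in these fits is that of the 1 cell described above. The Gsx1 of fasted AgRP-like neurons came largely from 1 cell too, which held 8.01 of 13.01 UMIs. That cell had 1.0 Agrp and 142 Npy UMIs. Without it the fasted level of Gsx1 was 3.05 CPM, within the fed range of 1.85 to 6.21 CPM.

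Of 61 other hypothalamic factors listed beside the members, 33 were tested in AgRP-like neurons, where 1 was higher and 2 were lower after fasting, beside 3.2% higher and 1.84% lower over all genes. Lmo3, a LIM-only co-factor, had 15.7 CPM in fasted and 63.8, 51.1 and 61.1 CPM in fed cells (log2 fold -1.87, SE 0.33, edgeR adjusted p = 0.000273). Zfhx4, a large zinc-finger homeodomain protein, had 22.1 CPM in fasted and 35.1, 63.6 and 65.3 CPM in fed cells (-1.24, SE 0.35, edgeR adjusted p = 0.034). Foxp2, a forkhead repressor, rose to 23.8 CPM in fasted AgRP-like neurons, against 4.62, 2.37 and 4.14 CPM in fed ones (2.68, SE 0.53, edgeR adjusted p = 0.00116).

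Outside AgRP-like neurons 1 of 47 of these factors passed in other neurons, 1 of 27 in tanycyte-like cells and 0 of 44 in remaining cells with edgeR. Over all genes these shares were 0.144% in other neurons, 3.1% in tanycyte-like cells and 0.0% in remaining cells. Foxp2 was lower in other neurons of the fasted plate, with 2 UMIs there and 366 on the fed plates together. The ratio was 0.0237 (95% counting interval 0.0029 to 0.0864), and the interval pools the fed plates and covers counting error only. Cluster 14 of other neurons (40 cells) and subclusters N4, N5, N8, N9 and N12 had no cell on the fasted plate. Fewer cells of a kind thus cannot be told from less Foxp2 RNA per cell. Prox1, a homeodomain factor of neural and lymphatic cells, rose to 136 CPM in fasted tanycyte-like cells, against 40.2, 70.2 and 48.5 CPM in fed ones (log2 fold 1.33, SE 0.34, edgeR adjusted p = 0.00956).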

How the data were processed

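The authors deposited 1 table of expected counts a plate, with UMIs by gene and well, not normalized; the values fall on steps of a correction for UMIs used more than once. The submitters' processing notes name Trim Galore, STAR and mm10. No counter, annotation or strand setting is named in them. Antisense genes overlap Six6, Nkx2-1 and Tbx3, and their reads cannot be told apart without strand.

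The members and lists were chosen with earlier results of these data known. Wells needed 1000 transcripts (spike-ins and mitochondrial RNA not counted) and under 30% mitochondrial RNA. Cells were clustered with scanpy 1.11.5 (2000 genes, 30 components, 10 neighbours, Leiden resolution 1.5, 27 clusters), leaving the members, the 61 other factors and Agrp, Npy, Pomc and Cartpt out. A class carries "-like" when at least 3 markers of its list are higher by a log2 fold of 1 and seen in 25% of cells; a cluster was neuronal at 40 marker UMIs per 10000, and cluster 15 (34 cells), just below, stayed among remaining cells. With 1 cell sorted per well, no doublet caller was run. Sums per plate and class, rounded, were tested with edgeR 4.0.16 (filterByExpr, TMM, quasi-likelihood, 2 residual degrees of freedom), which takes its spread from the fed plates. CPM in the text uses plain totals, and log2 folds follow TMM scaling. Each SE was derived as the size of the log2 fold over the square root of the F statistic of the edgeR test. The script was tested on simulated data. Named genes are the 10 members, the nearest genes of each by correlation, and other factors past the threshold, at most 8 per class. Alternatives were DESeq2 1.42.0, RLE factors, no filter, each fed plate left out, a minimum of 2000 transcripts, Xist-only cells, Leiden resolution 1.0 and AgRP neurons defined by over 5 Agrp and over 5 Npy UMIs per 10000 (177 cells). Fits without the Scn7a-led cluster, pars tuberalis-like cells or subclusters of 1 plate were added after seeing the data.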

Additional observations from a re-analysis of the deposited data

Results flagged for a closer look

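Among 49 other hypothalamic factors tested, 4 differed between AgRP-like and other neurons in their fasted minus fed log2 fold, by the interaction test of edgeR. Over all genes 1.22% of 13865 passed it. Foxp2 had a difference of log2 folds of 7.9 (SE 0.75, edgeR adjusted p = 1.75e-06), a size that depends on the 2 UMIs of fasted other neurons. Foxo1, a forkhead factor that insulin signalling holds out of the nucleus, had a difference of 1.97 (SE 0.28, edgeR adjusted p = 0.000325), with 298 CPM in fasted and 191, 253 and 170 CPM in fed AgRP-like neurons and 35.8 CPM in fasted and 101, 122 and 65.4 CPM in fed other neurons. Zfhx3, a zinc-finger homeodomain protein, had a difference of -1.1 (SE 0.19, edgeR adjusted p = 0.00234), and Zfhx4 of -1.91 (SE 0.33, edgeR adjusted p = 0.00276). Zfhx3 had 906 CPM in fasted AgRP-like neurons, within the 880, 1147 and 1162 CPM of the fed plates. In other neurons it had 658 CPM fasted, above 244, 458 and 376 CPM fed. Zfhx4 had 140 CPM in fasted and 66.7, 116 and 84.1 CPM in fed other neurons. No member of the set passed this interaction test. DESeq2, fits without 1 fed plate and fits in Xist-only cells were read by gene for the members only, so not for these 4 factors. The plate block does not remove a different mix of cells among other neurons. The fasted plate had 21 of them, with none in N4, N5, N8, N9 and N12, and the part of this mix was not tested.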

How the results depend on the processing

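Under each alternative run 8 members had a mean log2 ratio of AgRP-like to other neurons beyond 1 in size, and all 80 member ratios moved by less than 1 SD over plates. Several alternatives changed the classes little. At resolution 1.0 the AgRP-like clusters again had 86, 83 and 28 cells, and the 177 cells defined by Agrp and Npy all lay in the AgRP-like clusters. TMM factors move all member ratios by the same amount. The median number of factors per AgRP-like neuron was 4.0 at 3000 transcripts and 2.0 at 1000.

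The fasting calls depended on which plates and cells entered, and the cause was not tested. Members past the threshold numbered 0 to 1 in AgRP-like neurons over the fits without 1 fed plate, 0 to 2 in other neurons, 0 to 0 in tanycyte-like cells, 0 to 1 in remaining cells and 1 to 2 for the difference between neuron classes. Genes past it numbered 496 to 974 in AgRP-like neurons, 62 to 252 in other neurons, 162 to 239 in tanycyte-like cells, 0 to 524 in remaining cells and 270 to 413 for the difference. Without a filter on low counts 2 members passed in other neurons (Otp, adjusted p = 0.000324 in edgeR, and Satb1, 0.0442) and 0 in tanycyte-like cells, with 164 genes in other neurons, 176 in tanycyte-like cells, 66 in remaining cells and 269 for the difference. DESeq2 called 189 genes in AgRP-like neurons, 25 in tanycyte-like cells with 0 members, 4 in remaining cells and 24 for the difference. In Xist-only cells 59 genes passed in AgRP-like neurons, 12 in tanycyte-like cells, 69 in remaining cells and 66 for the difference, with 1 member each in other neurons (Otp), tanycyte-like cells (Six6, log2 fold 2.37, without fed plate 1), remaining cells (Isl1, log2 fold 3.23) and the difference (Otp, -1.99). Without neuron subclusters found on 1 plate only, 45 genes and 1 member (Otp, 2.47) passed in other neurons and 1 member (Otp, -2.42) for the difference. Without the Scn7a-led cluster 0 members passed in tanycyte-like cells.

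Of the member log2 folds recomputed, 393 kept direction and side of the threshold and 33 changed sign, none of which passed. Over the fits without 1 fed plate, Otp ran from -0.123 to 0.116 and Cited1 from -0.033 to 0.08 in AgRP-like neurons. In other neurons Bsx ran from -0.379 to 0.04, Cited1 from -0.646 to 0.138, Tbx3 from -0.069 to 0.328 and Zfpm2 from -0.328 to 0.729. In remaining cells Six6 ran from -0.124 to 0.322, Nkx2-1 from -0.266 to 0.672, Tbx3 from -0.233 to 0.119, Satb1 from -0.079 to 0.571 and Zfpm2 from -0.303 to 0.497. For the difference Cited1 ran from -0.031 to 0.571, Isl1 from -0.161 to 0.032 and Nkx2-1 from -0.576 to 0.063. In Xist-only cells the sign turned for Otp (0.026) and Six6 (0.169) in AgRP-like neurons, Cited1 (0.045) and Zfpm2 (0.906) in other neurons, Tbx3 (0.058) in tanycyte-like cells, Six6 (-0.326), Tbx3 (0.414), Satb1 (-0.21) and Zfpm2 (-0.29) in remaining cells, and Cited1 (-0.087) and Nkx2-1 (0.098) for the difference. With AgRP neurons defined by Agrp and Npy it turned for Otp (0.048), Nkx2-1 (0.151) and Gsx1 (-0.553). It also turned for Zfpm2 in other neurons under DESeq2 (0.005), for Bsx (0.099) and Zfpm2 (0.789) there without the subclusters of 1 plate, for Cited1 (0.029) without the Scn7a-led cluster and for Six6 (-0.079) without pars tuberalis-like cells.

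No paired analysis was possible because there is only 1 fasted plate, and replicate numbers here follow accession order and pair no plates. The fits assume that the lone fasted plate varies as the fed plates do. Low UMI numbers limit Gsx1 and Nkx2-1 in AgRP-like neurons and Bsx in glial classes.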
